A study of Mus musculus with 6 samples.

Results

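Ribonucleotide reductase is the enzyme that turns ribonucleotides into the deoxyribonucleotides from which DNA is made. Mouse has 3 genes for its subunits, Rrm1, Rrm2 and Rrm2b, and all 3 were among the 7101 genes of the deposited RNA-seq table. They were taken by symbol, and Rrm1 and Rrm2 were chosen by their measured FPKM in this comparison: higher in knockout than in wild-type libraries, while most other genes of DNA replication were lower. Hence their own differences are given as a description, with no test. The groups were 3 libraries from lnc956 knockout mice (lnc956 is a long noncoding RNA) and 3 from wild-type mice, all C57BL/6N, all taken at E12.5 and all labelled as embryo. Transcript of lnc956 was not analysed here, and the genotype of each library is the labelled one. How the allele was made, and whether a library came from 1 embryo or several, is not stated, so the p-values below measure the spread between these libraries, which may be technical. The values are FPKM, the fragments of a transcript per kilobase of its length and per fixed number of mapped fragments, a scale on which genes of different length can be compared.

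The large subunit, encoded by Rrm1, holds the catalytic site and the allosteric sites that set how much of each deoxynucleotide is made. The small subunit, encoded by Rrm2, holds an iron centre and the tyrosyl radical that starts each reaction. Rrm2 is classically an S-phase gene: its transcription depends on the cell cycle and its protein is destroyed in G2 by cyclin F and from mitosis into G1 by the anaphase-promoting complex with Cdh1. The protein of Rrm1 is long-lived and changes less over the cycle. Rrm2b, also called p53R2, encodes an alternative small subunit that is induced through p53 and supplies deoxynucleotides for repair and for mitochondrial DNA in cells that are not dividing. In mouse uterus, Rrm2 has also been described as rising while the stroma turns into decidua, the maternal tissue around the implanted embryo.

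In GENCODE M21 on GRCm38, Rrm2 (ENSMUSG00000020649.11) lies on chromosome 12 between 24708241 and 24714146 on the plus strand. Its longest coding transcript has 10 exons and 2193 bases. Rrm1 (ENSMUSG00000030978.10) lies on chromosome 7 between 102441695 and 102469771 on the plus strand, with 19 exons and 3997 bases in its coding transcript. The unclassified transcript Gm45399 (102458245 to 102459260) lies inside it on the same strand. Rrm2b (ENSMUSG00000022292.16) lies on chromosome 15 between 37923952 and 37961318 on the minus strand, with 9 exons and 4561 bases. The antisense RNA Gm49085 (37960471 to 37966218, plus strand) overlaps its start and the processed pseudogene Gm3362 (37943327 to 37943792) lies within it. Whether the authors counted by strand is not given, so reads of Rrm2b and of Gm49085 cannot be told apart where they overlap.

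The 250 bases before the RefSeq transcription start are shown for Rrm2 and Rrm1 because both genes are usually placed among the S-phase genes controlled by E2F factors. Most other S-phase genes listed here were lower in knockout, while Rrm2 was higher. Rrm1 was higher in the values as deposited, but its direction depends on the scaling, as given below. The sequences are RefSeq's on GRCm38.p6, for 2 of the 3 genes, at chr12:24708004-24708253 for Rrm2 and chr7:102441445-102441694 for Rrm1, both on the plus strand. Capitals mark CCAAT (the letters bound by the factor NF-Y) and 7-letter E2F-type matches, each read on either strand.
Rrm2: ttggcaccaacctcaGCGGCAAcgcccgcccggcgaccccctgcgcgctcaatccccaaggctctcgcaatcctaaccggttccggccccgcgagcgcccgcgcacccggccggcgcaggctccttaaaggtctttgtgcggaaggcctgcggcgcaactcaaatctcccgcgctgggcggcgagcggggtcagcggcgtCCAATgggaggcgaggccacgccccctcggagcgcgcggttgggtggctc
Rrm1: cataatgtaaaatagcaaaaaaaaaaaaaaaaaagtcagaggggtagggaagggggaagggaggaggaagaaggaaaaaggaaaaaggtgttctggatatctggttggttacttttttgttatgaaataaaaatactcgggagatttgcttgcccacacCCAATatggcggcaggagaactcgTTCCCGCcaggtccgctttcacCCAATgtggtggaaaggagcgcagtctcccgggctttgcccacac

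The E2F-type letters searched were TTCCCGC, its variant TTCGCGC, the form TTGCCGC, and lastly TTGGCGC. Rrm1 held TTCCCGC on the gene's strand from position -67 to -61, between CCAAT matches at -91 to -87 and -45 to -41. Rrm2 held TTGCCGC on the opposite strand from -235 to -229, far from its CCAAT at -50 to -46. It also held GGGCGG, the letters of a GC box, at -225 to -220 on the opposite strand and at -75 to -70 on its own, and Rrm1 held none. The window of Rrm2 was 72.4% G and C and that of Rrm1 46.0%, against a median of 52.4% over the 32851 promoters of the RefSeq table. Of those promoters, 33.8% held CCAAT, 7.89% held an E2F-type match and 32.7% held GGGCGG. Of the 33 other S-phase genes with a promoter in that table, 20 held CCAAT, 17 held an E2F-type match and 22 held GGGCGG in at least 1 promoter. Those counts are of genes, and a gene with several promoters had several chances. They are therefore not on the same footing as the shares of promoters. All of these are matches of letters and say nothing of what binds there.

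The tissue markers of the libraries differed by genotype. By limma, 47.2% of all genes tested rose in knockout and 49.2% fell. Of 14 decidual stroma markers tested, 13 rose and Igfbp1 did not pass (it was at 0 in knockout replicate 2, and passed as lower without knockout replicate 3, with a log2 change of −1.33), and their summed FPKM was 9473 to 11346 in knockout and 146 to 170 in wild type. The calls of Wnt4, Alpl and Bmp2 on this list ended under at least 1 alternative each: Bmp2 without wild-type replicate 3 (limma adjusted p = 0.0613), Alpl without knockout replicate 1 or 3 or wild-type replicate 2 or 3 (0.0506 to 0.0641), and Wnt4 without any 1 library other than knockout replicate 1 (0.0545 to 0.111). All 12 trophoblast markers tested, of 14 in the table, rose (13416 to 34928 FPKM summed in knockout, 7.95 to 9.27 in wild type), while Gcm1, a marker of labyrinth trophoblast, was at 0 in knockout replicates 1 and 2. In wild type Gcm1, Psg17, Rhox6 and the granzyme gene Gzme were at 0 in at least 1 library. All 10 uterine natural killer cell markers rose (7548 to 18922 FPKM in knockout, 4.88 to 7.38 FPKM in wild type). Eomes stands on both of these lists. All 8 neuron markers fell (5.94 to 21.3 FPKM in knockout, 745 to 786 FPKM in wild type), with Nefl at 0 in knockout replicate 1 and Elavl3 in replicate 2, and all 4 neural progenitor markers fell (1.84 to 2.89 FPKM in knockout, 322 to 403 FPKM in wild type), with Pax6 at 0 in knockout replicates 2 and 3. All 7 skeletal muscle and heart markers fell too (11.1 to 11.6 FPKM in knockout, 468 to 625 FPKM in wild type), as did all 9 erythroid markers (2174 to 4813 FPKM in knockout, 27909 to 42465 FPKM in wild type). The libraries of both genotypes are labelled as embryo. In knockout the markers of neurons, neural progenitors and muscle were low, though not all near 0. Tubb3 was at 17.8, 0.902 and 8.99 FPKM in knockout replicates 1 to 3, against a mean of 370 FPKM in wild type. Tnnt2 was at 6.39, 6.23 and 3.66 FPKM there, against a mean of 63.3 FPKM in wild type. Libraries of both genotypes hold RNA of whole tissue, so fewer cells of a type and less RNA per cell cannot be told apart. On each marker list the summed FPKM of the genotypes did not overlap. A difference by genotype and a difference by tissue content therefore cannot be told apart for any gene in these libraries. The part of tissue content in the ribonucleotide reductase values was not tested.

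Rrm2 transcript was several-fold more abundant in the knockout libraries. It stood at 468, 586 and 575 FPKM in knockout replicates 1 to 3, against 97.0, 82.0 and 107 FPKM in wild-type replicates 1 to 3. The groups did not overlap, and the lowest knockout value was 4.35 times the highest wild-type value. Of all genes, 95.6% had groups that did not overlap, 47.1% with knockout higher and 48.5% with knockout lower, so nothing is read from that. The means were 543 ± 65.4 FPKM in knockout and 95.5 ± 12.8 FPKM in wild type (SD, n = 3 each, as throughout), a ratio of 5.68. On the log2(FPKM + 1) scale the difference was 2.50 with a standard error of 0.16. By level, Rrm2 was the 87th, 76th and 66th most abundant gene of the table in knockout replicates 1 to 3 and the 259th, 281st and 202nd in wild-type replicates 1 to 3. By rank, too, the groups did not overlap.

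Rrm1 differed much less. It stood at 94.7, 123 and 111 FPKM in knockout, against 78.3, 67.1 and 81.0 FPKM in wild type. The groups did not overlap, but the lowest knockout value was 1.17 times the highest wild-type value. The means were 109.9 ± 14.5 FPKM in knockout and 75.5 ± 7.41 FPKM in wild type, a ratio of 1.46 and a log2 difference of 0.53 with a standard error of 0.15. Over the 6487 genes tested the log2 change had a median of 0.38, so Rrm1 was 0.15 above that median on the deposited scale. It was 0.27 above it after a trimmed-mean rescaling of the libraries (which put the median at 0.67) and 0.20 below it after quantile normalization (median 0.01), where the log2 difference of Rrm1 turned to −0.19. Only 10 genes of the table had group means that differed by a log2 ratio under 0.5, so these medians are not levels of no change. The place of Rrm1 in the table was 403rd, 349th and 351st in knockout and 331st, 346th and 291st in wild type. By rank, then, Rrm1 was no higher in knockout, and whether its level differed depends on the scaling.

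Rrm2b was the least abundant of the 3 in every library. It stood at 5.10, 4.81 and 4.52 FPKM in knockout, against 1.42, 1.62 and 2.16 FPKM in wild type. The lowest knockout value was 2.09 times the highest wild-type value. The means were 4.81 ± 0.29 FPKM in knockout and 1.74 ± 0.383 FPKM in wild type, a ratio of 2.77. At such low levels the added 1 FPKM shrinks the log2 difference, which was 1.09 (standard error 0.15) and 1.44 with 0.1 FPKM added instead. After the median of all genes tested was taken off, Rrm2 remained 2.12, 2.23 and 1.49 higher, and Rrm2b 0.72, 0.72 and 1.65 higher, in the values as deposited, with trimmed-mean rescaling and with quantile normalization. Those medians are not levels of no change either, so these values are a description. All 3 genes had groups that did not overlap, as did most genes of the table.

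**Figure D1:**
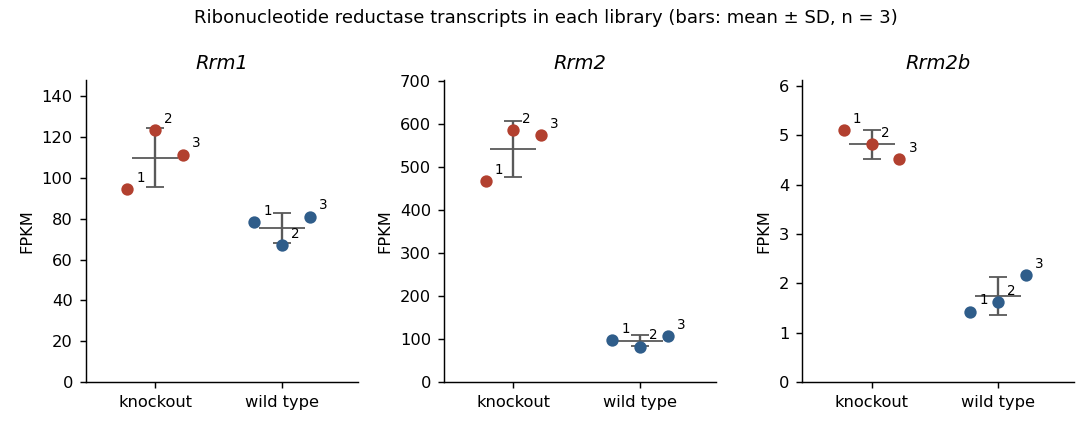
FPKM of Rrm1, Rrm2 and Rrm2b in the 3 knockout and 3 wild-type libraries; points are libraries numbered by replicate, and bars give the mean and SD. Each gene has its own axis from 0: the groups are far apart for Rrm2 (468 to 586 FPKM in knockout, 82.0 to 107 FPKM in wild type) and close together for Rrm1 (94.7 to 123 FPKM in knockout, 67.1 to 81.0 FPKM in wild type).

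Ratios within a library do not move when that library is rescaled, and they showed the clearest contrast between the subunits. There were 4.94, 4.75 and 5.16 Rrm2 transcripts per Rrm1 transcript in knockout replicates 1 to 3, against 1.24, 1.22 and 1.33 in wild-type replicates 1 to 3, on the FPKM scale. The mean ratios were 4.95 ± 0.205 in knockout and 1.26 ± 0.0552 in wild type, which is 3.92 times as high in knockout. The ratio varied little among replicates of either genotype, less than Rrm1 or Rrm2 alone did. The log2 difference of this ratio was 1.97 and stayed between 1.94 and 2.01 when each library was left out in turn. After quantile normalization, which moves genes within a library, it was 1.69.

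The alternative small subunit was a small share of small-subunit transcript throughout. Rrm2b made up 1.08%, 0.814% and 0.781% of Rrm2 and Rrm2b together in knockout, against 1.45%, 1.94% and 1.98% in wild type. Its share was lower in knockout although its own level was higher, because Rrm2 differed more. Per Rrm2b transcript there were 22.95 ± 3.84 Rrm1 transcripts in knockout and 44.6 ± 9.25 in wild type. The small subunits together outnumbered the large one in every library: Rrm1 stood at 0.201 ± 0.00826 of their sum in knockout and 0.779 ± 0.0343 in wild type.

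**Figure D2:**
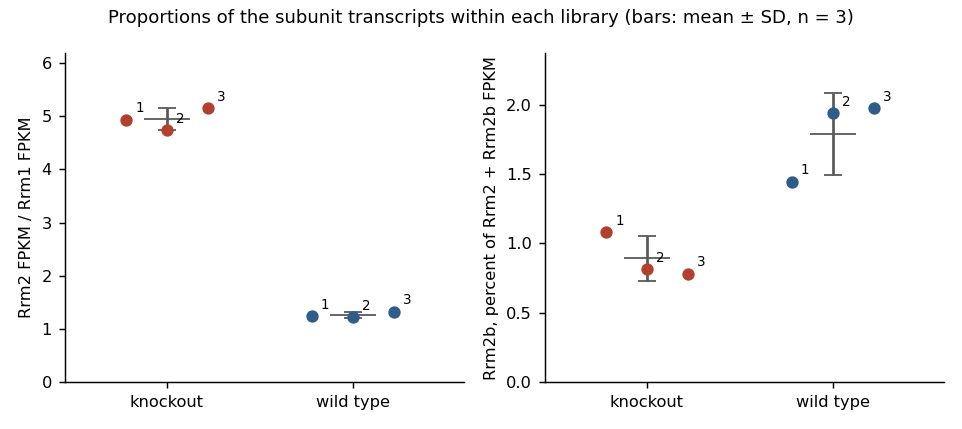
Left, FPKM of Rrm2 divided by that of Rrm1; right, Rrm2b as a percent of Rrm2 plus Rrm2b, in the 3 knockout and 3 wild-type libraries (points, numbered by replicate; bars are mean and SD; both axes start at 0). The left ratio is 4.75 to 5.16 in knockout and 1.22 to 1.33 in wild type, and the right share is 0.781% to 1.08% in knockout and 1.45% to 1.98% in wild type.

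The other S-phase genes, set beside the enzyme, stood on the opposite side. These were the 42 tested genes of 2 lists, DNA polymerases and fork proteins (24 tested of 38) and the replicative helicase and its licensing factors (18 of 27). By limma, 41 of them passed as lower in knockout, where 49.2% of all genes tested passed as lower, 47.2% as higher and 96.4% in either direction. That direction is part of how Rrm1 and Rrm2 were chosen, so nothing is read from the count. Taken as percent of wild type, their median member stood at 17.8%, 7.94% and 21.6% in knockout replicates 1 to 3, where Rrm2 stood at 490%, 614% and 602% and Rrm1 at 125%, 164% and 148%. The exception among the 42 was Pold4, which encodes the small accessory subunit of DNA polymerase delta, at 57.5 ± 19.3 FPKM in knockout and 8.47 ± 1.21 FPKM in wild type (log2 change 2.59, SE 0.24, limma adjusted p = 2.95e-05). Among those that fell, Pola2 (log2 change −2.35), a subunit of the polymerase that starts each strand, Timeless (−2.33) of the fork and Chaf1b (−2.61) of the chromatin assembly factor had the smallest p of the first list, and Gins3 (−1.46), Recql4 (−1.98) and Ticrr (−2.08), which serve the firing of origins, that of the second.

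Measured against those genes within each library, the distance was wide. On the log2(FPKM + 1) scale, Rrm2 stood 6.29, 7.53 and 5.87 above the median S-phase gene in knockout replicates 1 to 3, against 1.70, 1.67 and 1.85 above it in wild-type replicates 1 to 3. Rrm1 stood 3.997, 5.30 and 3.52 above it in knockout, against 1.39, 1.38 and 1.45 in wild type. Rrm2b was level with that median or near it in knockout (0.03, 0.87 and −0.83) and below it in wild type (−3.64, −3.32 and −3.25). For Rrm1 the difference between the genotypes in this distance was 2.86, and it was 2.14 after quantile normalization. These distances restate how Rrm1 and Rrm2 were chosen and are given as a description.

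The order of the knockout libraries differed between the subunits and those genes. Of the 42 S-phase genes, 40 had their lowest knockout value in replicate 2 and 37 their highest in replicate 3, while among all genes tested 36.1% were lowest in replicate 2 and 36.4% highest in replicate 3. Rrm1 and Rrm2 both had their highest knockout value in replicate 2 and their lowest in replicate 1, and Rrm2b was highest in replicate 1 and lowest in replicate 3. Of all genes tested, 41.1% were highest in knockout replicate 2 and 43.1% lowest in knockout replicate 1, the largest share in each case. Nothing is therefore read from the order of Rrm1 and Rrm2. The ratio of Rrm2 to Tyms, which encodes thymidylate synthase, was uneven in knockout, at 123, 384 and 119, against 4.66, 4.26 and 4.75 in wild type. Summed markers of uterine natural killer cells and of decidual stroma were also highest in knockout replicate 2 (18922 and 11346 FPKM), and those of trophoblast were highest in replicate 1 (34928 FPKM). The trophoblast sum was led there by Prl2c2 (14208, 2135 and 1579 FPKM in knockout replicates 1 to 3) and Prl3d1 (8089, 225 and 338 FPKM). Single markers did not all share the order of their sum: Tpbpa was highest in replicate 3, Ctsj in replicate 2, and the decidual marker Prl8a2 in replicate 1. Whether these orders are linked was not tested. Among wild-type libraries, replicate 2 held the lowest value of Rrm1, of Rrm2 and of 34 of the 42 genes, where 44.7% of all genes tested were lowest in it. Rrm2b was lowest in wild-type replicate 1.

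**Figure D3:**
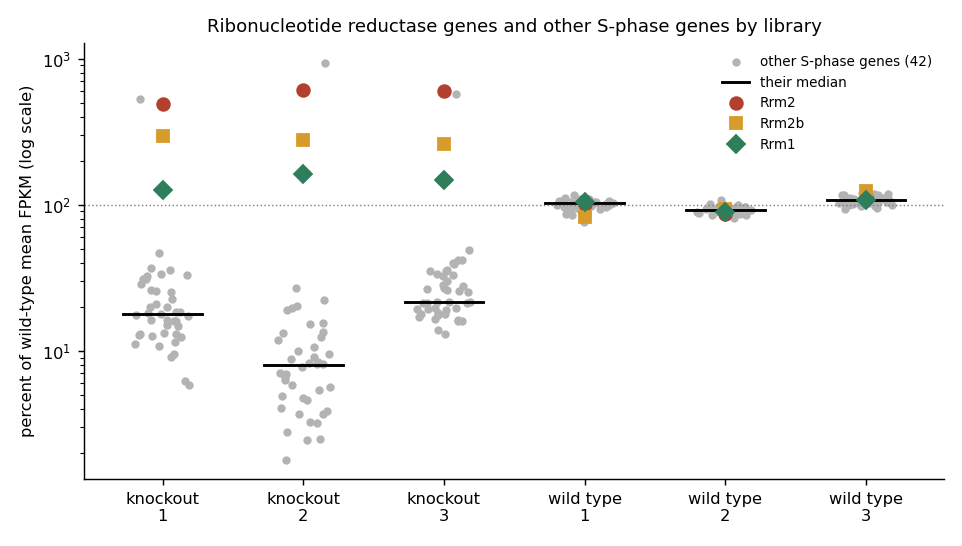
Level of Rrm2, Rrm2b, Rrm1 and 42 other S-phase genes in each library as a percent of the gene's wild-type mean FPKM, on a log axis; grey points are single genes and black lines their median. In the 3 knockout libraries the median gene lies at 17.8%, 7.94% and 21.6%, with the enzyme's genes above 100%; the single grey point near Rrm2 is Pold4.

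The genes of thymidine nucleotide synthesis and of the salvage and breakdown of deoxynucleotides differed in both directions. Of the 39 genes on this list, 16 were in the table and tested; by limma 7 rose and 9 fell, shares near the 47.2% and 49.2% of all genes tested, and the list's median log2 change was −1.61 beside 0.38 for all genes. Tyms, among those that fell, was at 3.38 ± 1.69 FPKM in knockout and 20.9 ± 1.69 in wild type (log2 change −2.40, SE 0.31, limma adjusted p = 0.000155). Tk1, the S-phase thymidine kinase, was at 12.9, 3.05 and 18.1 FPKM in knockout and 45.5 ± 4.03 in wild type. Dctd, Dtymk, Shmt1, Mthfd1, Nudt1 and Nme4 also fell, and the largest fall was that of Nme4, a mitochondrial nucleoside diphosphate kinase, at 0.786 ± 0.543 FPKM in knockout and 43.9 ± 6.96 in wild type (log2 change −4.69).

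Ada, adenosine deaminase, was among those that rose and was at 359, 150.2 and 292 FPKM in knockout replicates 1 to 3, against 4.33, 3.03 and 3.15 FPKM in wild type (log2 change 5.82, SE 0.32, limma adjusted p = 2.58e-06). Cda, cytidine deaminase, was at 55.3 ± 17.1 FPKM in knockout and 1.80 ± 0.321 in wild type (log2 change 4.30, SE 0.23, limma adjusted p = 2.3e-06). Samhd1, which hydrolyses deoxynucleoside triphosphates and so works against the enzyme, was at 85.1, 106 and 85.7 FPKM in knockout, against 15.7, 13.02 and 14.8 FPKM in wild type (log2 change 2.58, SE 0.15, limma adjusted p = 3.01e-06). That is close to the log2 difference of Rrm2, 2.50. The ratio of Rrm2 to Samhd1 was 5.49, 5.55 and 6.71 in knockout and 6.17, 6.30 and 7.26 in wild type, so the groups overlapped in it. Pnp (purine nucleoside phosphorylase), the nucleoside transporter gene Slc29a1, the mitochondrial pyrimidine nucleotide carrier gene Slc25a33 and Uckl1 rose with log2 changes from 0.82 to 1.99. Dut and Dck, which were to be named whatever their values, were not analysed here.

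The list of ribonucleotide synthesis, which supplies what the enzyme works on, had 23 genes, of which 14 were tested. By limma the transcripts of 10 fell and of 4 rose, where 49.2% of all genes tested fell and 47.2% rose, with a median log2 change of −1.55. The pyrimidine genes Cad, Dhodh and Ctps and the purine genes Gart, Pfas, Adsl and Impdh2 all fell. Pfas, for a step in building the purine ring, had a mean in knockout of 0.172 times its wild-type mean (log2 change −2.08, SE 0.18, limma adjusted p = 2.14e-05). Ctps, which makes CTP, was at 12.3 ± 0.997 FPKM in knockout and 36.7 ± 2.16 FPKM in wild type (log2 change −1.50, SE 0.13, limma adjusted p = 2.19e-05). The genes for the purine salvage enzymes, Hprt and Aprt, rose, and Aprt was at 358 ± 120 FPKM in knockout and 97.3 ± 12.2 in wild type. The phosphoribosyl pyrophosphate synthetases divided: Prps1 fell to 4.205 ± 1.78 FPKM in knockout, against 24.7 ± 2.39 in wild type, while Prps2 was at 39.0 ± 5.87 FPKM in knockout and 5.31 ± 1.12 in wild type. Summed, they came to 45.7, 47.8 and 36.1 FPKM in knockout replicates 1 to 3 and 30.7, 27.2 and 32.2 FPKM in wild type. Adssl1, an adenylosuccinate synthase gene, rose (34.5 ± 14.8 FPKM in knockout, 3.68 ± 0.557 FPKM in wild type), and Prpsap1 and Prpsap2, for proteins associated with the synthetases, fell.

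The enzyme is reset after each reaction by electrons from thioredoxin or glutaredoxin. Of 14 genes on this list only 5 were in the table, and all 5 rose by limma, where 47.2% of all genes did. Txn1, thioredoxin itself, was at 616, 530 and 569 FPKM in knockout, against 157, 146 and 150.0 FPKM in wild type (log2 change 1.91, SE 0.13, limma adjusted p = 5.5e-06). Txnip, which binds and inhibits thioredoxin, was at 279 ± 55.5 FPKM in knockout and 32.5 ± 6.34 in wild type (log2 change 3.07, SE 0.20, limma adjusted p = 5.43e-06). Glrx, glutaredoxin, was at 58.7, 22.6 and 27.6 FPKM in knockout and 14.3 ± 0.684 in wild type, and its log2 change was 1.16, or 0.76 without knockout replicate 1. Gsr and Gclc, for glutathione reduction and synthesis, had log2 changes of 0.84 and 0.87. Txnrd1, thioredoxin reductase, was not analysed here.

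**Figure D4:**
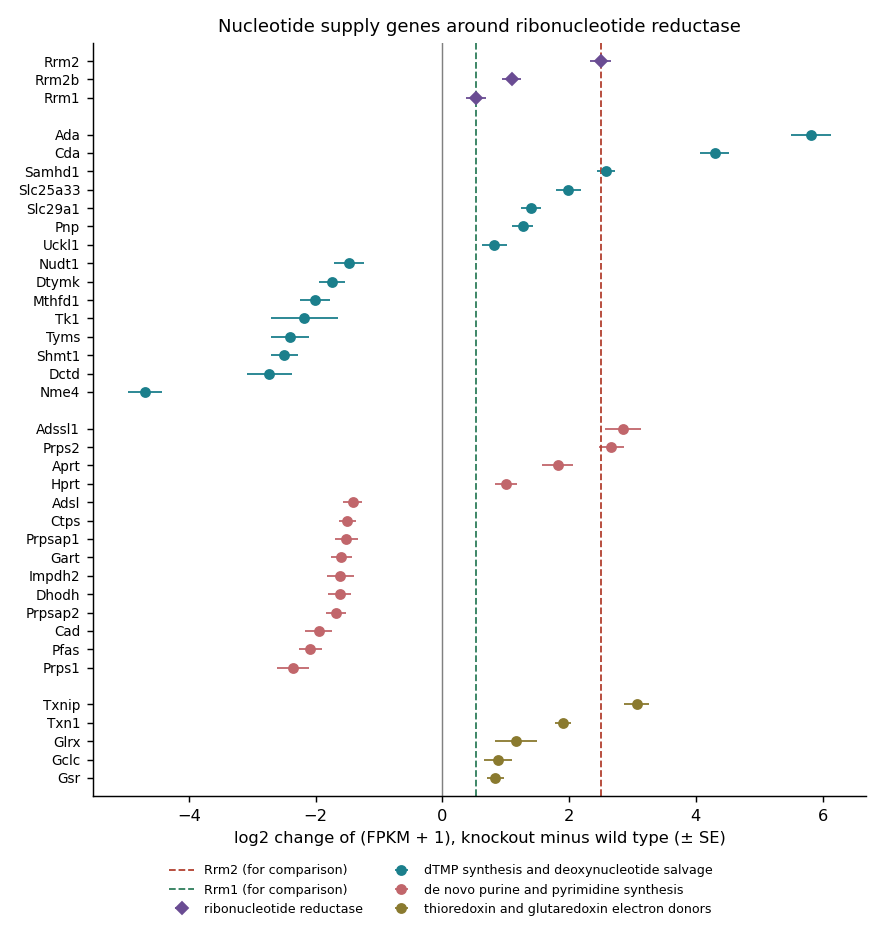
Log2 change of FPKM + 1, knockout minus wild type, with standard errors, for the 3 subunit genes (diamonds) and tested genes of the thymidylate and salvage, purine and pyrimidine, and thioredoxin lists (circles, all past a limma adjusted p of 0.05). Dashed lines repeat the Rrm2 and Rrm1 values of 2.50 and 0.53; Tyms lies at −2.40, Tk1 at −2.18 and Samhd1 at 2.58.

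The small subunit also needs iron, and of 23 iron genes listed 12 were tested. By limma 8 rose, 3 fell and Steap3 did not pass (log2 change 0.79, adjusted p = 0.052), where 47.2% of all genes tested rose and 49.2% fell, with a median log2 change of 1.10. Ferritin genes for iron storage rose: Ftl1 was at 5105 ± 429.9 FPKM in knockout and 1855 ± 195 in wild type, and Fth1 at 2547 ± 771 FPKM in knockout and 772 ± 133 FPKM in wild type. Both calls ended with quantile normalization (log2 changes 0.36 and 0.27, limma adjusted p = 0.143 and 0.173), and ferritin genes have pseudogene copies that may share reads. Slc40a1, the iron exporter ferroportin, rose (log2 change 1.40). Tfrc, the transferrin receptor through which dividing cells take up iron, was at 6.85, 3.39 and 15.4 FPKM in knockout and 26.4 ± 1.27 in wild type (log2 change −1.72, limma adjusted p = 0.0058), and Tfr2, another transferrin receptor gene, fell as well. Fdx1, Slc39a14, Ncoa4, Isca1 and Hfe made up the rest of those that rose. Fdx1, a ferredoxin that feeds electrons to steroid synthesis, was at 180 FPKM in knockout replicate 1 and 34.6 and 38.0 FPKM in the other two, against 12.3, 11.7 and 9.18 FPKM in wild type. The call of Hfe ended with 0.1 FPKM added and without knockout replicate 2 or wild-type replicate 2 or 3 (limma adjusted p = 0.0582 to 0.0967), and that of Isca1 with quantile normalization (0.213). Steap3 passed under 7 alternatives, among them without knockout replicate 1 or 2 (0.0374 and 0.0203).

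Most genes on the list of regulators of the enzyme, which also holds cyclins and other general cell cycle genes, went the way of the S-phase genes. Of 49 genes on the list 28 were tested, and by limma 24 fell and 4 rose, against 49.2% and 47.2% of all genes tested, with a median log2 change of −2.05. The activating E2F genes fell together: E2f1 was at 1.80, 1.90 and 2.15 FPKM in knockout, against 17.9, 14.8 and 18.0 FPKM in wild type (log2 change −2.60, SE 0.15, limma adjusted p = 3.08e-06), and E2f2 and E2f3 had log2 changes of −2.69 and −1.50. E2f5, of the repressive branch, fell too (−1.71). E2f8, an atypical repressor that acts in cells that copy their genome without dividing, was the E2F gene that rose, at 31.7, 15.7 and 27.3 FPKM in knockout, against 10.96, 9.66 and 9.48 FPKM in wild type (log2 change 1.18, SE 0.26, limma adjusted p = 0.00283). E2f4, E2f6 and E2f7 were not analysed here. Nfyb, a subunit of the CCAAT-binding factor, fell (6.73 ± 0.0312 FPKM in knockout, 23.2 ± 0.999 FPKM in wild type).

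Genes for the destruction of the Rrm2 protein were among the 24 of 28 regulators that fell, where 49.2% of all genes tested fell. Ccnf, cyclin F, was at 11.1, 2.33 and 12.4 FPKM in knockout, against 28.8, 23.0 and 29.9 FPKM in wild type (log2 change −1.78, or −1.14 without knockout replicate 2). Fzr1, which encodes Cdh1, was at 12.7 ± 3.4 FPKM in knockout and 47.7 ± 6.81 in wild type (log2 change −1.85, SE 0.21, limma adjusted p = 8.14e-05). These are transcripts, and no protein was measured. Cyclins of G1 and S fell, among them Ccnd1 (2.72 ± 0.354 FPKM in knockout, 82.3 ± 7.96 FPKM in wild type), Ccnd2 (0.9705 ± 0.253 FPKM in knockout, 72.9 ± 3.39 FPKM in wild type), Ccnd3 (23.4 ± 10.1 FPKM in knockout, 96.6 ± 14.7 FPKM in wild type), Ccne1 (log2 change −2.55) and Ccna2 (−3.29). Mycn was at 0.471 ± 0.289 FPKM in knockout and 21.7 ± 1.83 in wild type.

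Trp53, whose product induces Rrm2b, fell (17.4 ± 2.72 FPKM in knockout, 74.5 ± 5.67 FPKM in wild type, log2 change −2.05). Rrm2b was higher, and the activity of the p53 protein was not measured. Cdkn1a, the cell cycle inhibitor p21 and the best known target of p53, was at 50.8, 112 and 56.6 FPKM in knockout, against 17.1, 13.9 and 12.7 FPKM in wild type (log2 change 2.17, SE 0.30, limma adjusted p = 0.00025). Wee1, the kinase that holds back Cdk1 and, through Cdk activity, protects Rrm2 protein, rose (log2 change 1.13, SE 0.14), as did Rbl2 (0.92), a pocket protein of resting cells. The mitotic genes stood further down than the S-phase genes: all 36 tested fell, where 49.2% of all genes tested did, with a median log2 change of −3.00, against −2.35 and −2.17 for the polymerase and helicase lists. The difference between those medians was not tested. Cenpm (−3.54), Nusap1 (−3.06) and Spag5 (−3.18), of kinetochore and spindle, had the smallest p among them.

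**Figure D5:**
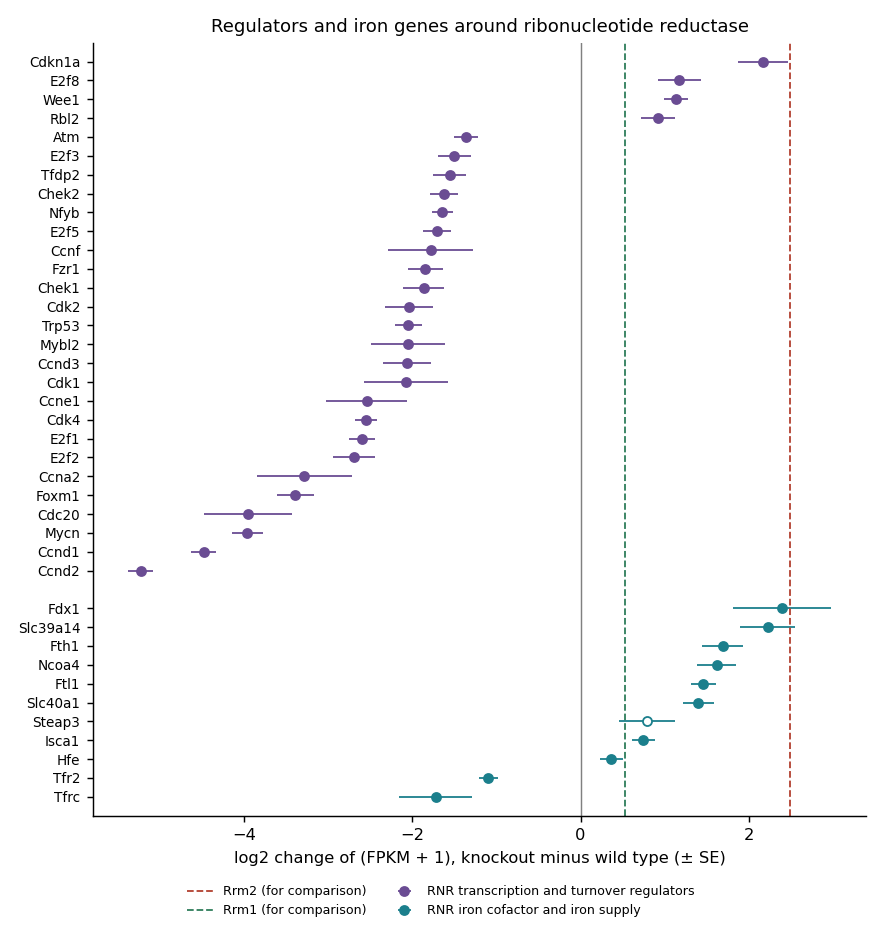
Log2 change of FPKM + 1, knockout minus wild type, with standard errors, for the 28 tested genes of the regulator list, general cell cycle genes among them, and for iron genes; filled points passed a limma adjusted p of 0.05 and the open point, Steap3, did not. Among the regulators, Cdkn1a, E2f8, Wee1 and Rbl2 lie right of 0 and the other 24 left of it; dashed lines repeat the Rrm2 and Rrm1 values of 2.50 and 0.53.

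The genes whose profile over the 6 libraries was nearest to each subunit were none of the S-phase genes listed. Likeness was the root mean square difference of log2(FPKM + 1) values, each gene centred on its wild-type mean, among the 6487 genes tested. Among the 5 nearest to Rrm2 were Vill (0.08), Parp10 (0.10), Kit (0.11) and Phf11d (0.11). Kit, a receptor of stem cell factor, was at 37.9, 51.5 and 54.7 FPKM in knockout, against 7.34, 6.21 and 7.47 FPKM in wild type. Nearest to Rrm1 were Irak1 and Scly (0.04), and Atf1, AA986860 and Pptc7 (0.05). Nearest to Rrm2b were Bcl2l2 (0.07), Slk, Atp13a3, Wt1os and C1galt1c1 (0.08 to 0.10). The subunits were further from each other than from these, at 1.39 for Rrm2 and Rrm1, 1.01 for Rrm2 and Rrm2b and 0.44 for Rrm2b and Rrm1. With 6 libraries in 2 groups, such likeness largely restates a similar difference between the genotypes. Rrm1 and Rrm2 were chosen as higher in knockout where most S-phase genes were lower. The absence of those genes from the nearest was thus largely built in, and nothing is read from it.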

How the data were processed

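The deposited table held 1 value per gene and library, taken as FPKM calculated by the authors. Its header names no unit, and FPKM is inferred from the values and from Cufflinks. TopHat2 2.0.8 and Cufflinks 2.1.1 are named, with builds mm9 and mm10 and no role for either, per the submitters' processing notes. Read depth is not given, so no counting interval is printed. The 7101 genes look selected: 3643 had a higher and 3458 a lower mean in knockout, and 10 differed by a log2 ratio under 0.5. Counts of list members therefore describe this table, not the transcriptome.

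Samples were grouped by their labels. The scale of the test was log2(FPKM + 1), which understates changes of low genes, where at least 3 of 6 libraries reached 1 FPKM (6487 genes, 614 left out). limma 3.58.1 was run in R 4.3.3 (trend and robust eBayes), two-sided, genotype only, Benjamini-Hochberg adjusted over the 6487 genes at 0.05, which 6256 genes (96.4%) passed. The code was tested on simulated data in which far fewer genes differed than here, so that test bears on the code only. Genes named outside the enzyme were those with the 3 smallest p-values per list and direction, plus a fixed set (Tyms, Tk1, Samhd1, Txn1, Glrx, the E2F genes, Ccnf, Fzr1, cyclins); a few genes it took are not reported here, and others complete a count or were chosen after values were seen. The genes and lists were chosen with earlier results of these data known. Scaling, pseudocount, filter, limma settings, a replicate block and each library left out were the alternatives.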

Additional observations from a re-analysis of the deposited data

How the results depend on the processing

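Of 336 alternative values for the 24 counts and subunit differences reported, 322 kept their direction and stayed close to the reported value. The sign of the Rrm1 difference turned with quantile normalization (−0.19) and was 0.93 after trimmed-mean rescaling. These settings gave 1.50 and 2.90 for Rrm2 and 1.66 and 1.39 for Rrm2b. For Rrm2b, 0.1 and 5 FPKM added gave 1.44 and 0.54. With quantile normalization the log2 ratio of Rrm2 to Rrm1 was 1.69, and the distances of Rrm2 and Rrm1 from the median S-phase gene differed between the genotypes by 3.83 and 2.14. With 5 FPKM added the distance of Rrm2 differed by 4.16. Under a filter of 1 FPKM in all 6 libraries, 1469 genes and 15 mitotic genes passed as lower, since fewer genes were tested. The causes of the other shifts were not tested. Leaving out each library in turn gave 0.44 to 0.63 for Rrm1, 2.39 to 2.60 for Rrm2 and 1.01 to 1.20 for Rrm2b. Of the 50 other genes taken by the naming rule, 48 kept their call and direction under all alternatives run, the exceptions being Fth1 and Ftl1. Deviations of same-numbered libraries correlated at −0.0551, 0.0814 and 0.11, so the numbers are not taken as pairs. With the replicate block, 3038 genes passed as higher and 3192 as lower, and the counts for the 8 gene lists were those reported, though not with the same genes: on the iron list Hfe lost its call (adjusted p = 0.0632) and Steap3 gained one (0.0299). On the decidual list Wnt4 lost its call (0.0661). The lack of read depth and the selection of the genes limit these values.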
